A study of Homo sapiens with 4 samples.

Results

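The genes described here carry the symbol ZNF followed by digits, the name given to human genes that encode zinc finger proteins, and were expressed in H9 cells, an established human embryonic stem cell line. Of 443 such genes with a probe on the array, 265 had a brightest probe of 100 or more deposited intensity units on at least 1 of the 4 arrays. The rule left out 2 of these, which leaves 263 genes, out of 9842 genes of any name that met the same intensity rule and 19951 named genes in all. The members were chosen by the deposited intensities of all 4 arrays, so their presence on an array is a description and not a result. Total RNA of H9 from 4 passage groups was hybridised to Illumina bead arrays. P1 covers passages in the 40s, P2 those in the 100s, P3 those in the 200s and P4 those in the 300s. No treatment or genetic change is given in the labels, and all 4 groups are the same line, described as human embryonic stem cells. Each group had 1 array, so there is no replicate spread, no test can be made, and each difference below compares 2 arrays. Whether the groups came from 1 continuous culture, and under which culture conditions, is not given in the sources used here.

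Most ZNF proteins bind DNA through tandem fingers in which a zinc ion is held by cysteines and histidines. Many also carry a KRAB domain, which recruits the scaffold protein TRIM28 and, through it, the methyltransferase SETDB1 and heterochromatin proteins. In embryonic stem cells this machinery is known for silencing retroelements and for keeping imprinted regions methylated. Human ZNF genes lie largely in tandem clusters that grew by gene duplication, above all on chromosome 19, and neighbouring copies can be alike in sequence. Other proteins of the name have no KRAB domain and act in transcription, splicing, mitosis or ribosome biology.

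Whole-array facts were few. An intensity of 38.4 units, the 60th percentile of the normalized values, served as the detection limit. Values under it were set to it before a fold was taken, so a fold with the dimmer array under the limit is given as "at least". With 47323 probes an array, deposited medians lay between 17.4 and 17.5 units. The number of arrays limits the precision, and intensities of different probes are not on a common scale of transcript abundance. All 11 undifferentiated-cell markers with a probe reached the limit. POU5F1 read 4109.8 (P1), 4379 (P2), 5446 (P3) and 5467 units (P4), and LIN28A, an RNA-binding protein of these cells, 18456 (P1), 18847 (P2), 18889 (P3) and 19783 units (P4). Not all 11 rose as these did. Against P1, their median log2 difference was -0.072 in P2, -0.063 in P3 and 0.10 in P4. A range of at least 2-fold was found for 1 marker, higher by as much in P3 and in P4 than in P2.

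Of the 263 genes, 233 had a start-site window in the RefSeq promoter table (build GRCh38.p14), which runs from 250 bases before to 50 bases after the annotated start. Of the 8 members that crossed the detection limit between passage groups, the windows of 5 are shown. ZNF502, ZNF81 and ZNF326 also crossed it, under the limit in P1 alone as ZNF560 was. Their windows, with 14, 25 and 32 CG, are not shown. The 5 shown are those of ZNF560, a marker of this gene set, and of the 4 members that were under the limit on 2 or more arrays. Each is written 5′ to 3′ on the gene's strand, with each CG dinucleotide, the site of DNA methylation, in capitals.
ZNF667 (chr19:56477296-56477595, minus strand, 42 CG): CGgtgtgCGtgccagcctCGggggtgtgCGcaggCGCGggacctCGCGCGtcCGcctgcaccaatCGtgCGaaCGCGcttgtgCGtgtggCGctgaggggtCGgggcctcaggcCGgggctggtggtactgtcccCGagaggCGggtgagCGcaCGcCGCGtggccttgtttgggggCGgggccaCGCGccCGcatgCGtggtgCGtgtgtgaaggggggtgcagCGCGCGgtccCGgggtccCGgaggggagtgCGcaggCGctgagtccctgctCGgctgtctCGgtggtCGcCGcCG
ZNF560 (chr19:9498567-9498866, minus strand, 16 CG): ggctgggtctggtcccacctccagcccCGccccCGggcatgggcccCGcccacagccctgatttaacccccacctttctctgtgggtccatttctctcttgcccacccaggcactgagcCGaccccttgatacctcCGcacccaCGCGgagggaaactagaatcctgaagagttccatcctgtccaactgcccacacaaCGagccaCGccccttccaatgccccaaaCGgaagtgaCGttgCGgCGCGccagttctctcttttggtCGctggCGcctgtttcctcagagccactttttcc
ZNF439 (chr19:11848476-11848775, plus strand, 12 CG): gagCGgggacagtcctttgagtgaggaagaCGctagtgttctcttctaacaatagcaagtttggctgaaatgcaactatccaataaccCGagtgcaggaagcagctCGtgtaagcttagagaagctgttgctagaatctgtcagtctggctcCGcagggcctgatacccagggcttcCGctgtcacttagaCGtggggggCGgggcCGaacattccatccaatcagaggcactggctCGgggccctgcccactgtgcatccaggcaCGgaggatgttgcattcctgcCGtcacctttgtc
ZNF311 (chr6:29005563-29005862, minus strand, 11 CG): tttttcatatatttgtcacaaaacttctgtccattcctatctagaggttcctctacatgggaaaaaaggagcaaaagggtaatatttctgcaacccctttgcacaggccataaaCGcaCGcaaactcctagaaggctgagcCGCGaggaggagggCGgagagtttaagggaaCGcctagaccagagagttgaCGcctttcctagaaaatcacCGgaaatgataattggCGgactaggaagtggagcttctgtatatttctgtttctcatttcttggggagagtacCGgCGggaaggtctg
ZNF454 (chr5:178940948-178941247, plus strand, 27 CG): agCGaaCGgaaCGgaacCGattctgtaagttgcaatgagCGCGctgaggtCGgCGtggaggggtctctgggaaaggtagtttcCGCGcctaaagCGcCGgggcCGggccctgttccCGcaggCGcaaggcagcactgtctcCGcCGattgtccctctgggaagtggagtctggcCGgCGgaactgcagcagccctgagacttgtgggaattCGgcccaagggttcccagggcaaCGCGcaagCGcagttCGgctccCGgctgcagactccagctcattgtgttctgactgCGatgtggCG

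These 5 windows ranged from 11 to 42 CG, on both sides of the median of 22 over the 233 members (quartiles 17 and 29). Over the 7949 protein-coding genes that met the intensity rule and had a window, the median was 27. Members whose 4 values spanned at least 2-fold had a median of 24 CG (17 windows) and the others 22 (216 windows). A window with fewer than 10 CG was held by 11 members, or 4.72%, against 9.56% of protein-coding genes meeting the rule and 27% of all 15843 protein-coding genes with a window. Searched on both strands, the ETS core CCGGAAG stood in 94 member windows (40.3%), against 19.7% of protein-coding genes meeting the rule and 14.2% of all. The GC box GGGCGG was found in 66.5% of member windows, against 71.5% and 58.5%, and the TATA box TATAAA in 2.15%, against 5.23% and 9.63%. These matches describe the letters in the windows. Each motif was counted on its own, whether or not it overlapped another, and methylation was not measured.

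By intensity the members were mostly dim. Their mean over the 4 arrays had a median of 349 units (quartiles 183 and 846), against 567 units over all genes meeting the rule. All 4 arrays read above the limit for 255 members, and 8 were under it somewhere. By array, these were 6 for P1, 4 for P2, 3 for P3 and 1 for P4. In 42 members the 100 units were not reached on all arrays. Such a gene had to differ between arrays if it was near 0 on one, so counts over the members are not evidence that they vary. The median member spanned 1.36-fold from its lowest to its highest array, against 1.33-fold over all genes meeting the rule. At least 2-fold was spanned by 20 members, or 7.60%, against 10.1% of all genes meeting the rule. Of these 20, 13 were among the 42 and 13 rested on a lone probe. Among members whose highest deposited value was under 500 units, 17 of 149 spanned at least 2-fold, a share of 11.4%, against 16.3% of all genes in that range.

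In P4 against P1, the widest passage interval, 7 members were higher in P4 by 2-fold or more and 3 were lower by as much. Over all genes meeting the rule, 1.94% were higher and 1.16% lower, against 2.66% and 1.14% of the members. The members' median log2 difference was -0.011 (all genes 0.030). Of the 263, 222 (84.4%) stayed within 1.5-fold, against 88.6% of all genes. The 7 higher members were ZNF560, ZNF667, ZNF502, ZNF439, ZNF81, ZNF621 and ZNF605, and 5 of them were under the limit in P1. The 3 lower members were ZNF311, ZNF649 and ZNF626. The members' median thus lay near 0, as that of all genes did. A floor at the 75th percentile left 0 higher members, and there were 3 among the 202 members that reached 200 units. The shares over all genes were not recomputed under these settings. In bulk RNA, fewer cells with a transcript and less transcript per cell cannot be told apart.

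The other comparisons against P1 share the P1 array. In P3 against P1, 5 members were higher by 2-fold or more (all genes 2.04%) and 3 lower (all genes 1.59%), and the median was -0.0090. In P2 against P1, 4 were higher (all genes 2.19%) and 6 lower (all genes 2.26%), with a median of 0.010. In P3 against P2 the counts were 3 higher (all genes 2.28%) and 0 lower (all genes 1.07%). P4 against P3 gave 6 higher (all genes 1.38%) and 2 lower (all genes 0.762%), and P4 against P2 gave 7 higher (all genes 2.48%) and 1 lower (all genes 0.793%). The medians were -0.034, -0.022 and -0.029, against -0.021, -0.0035 and -0.017 over all genes. The shares of members past 2-fold lay between 0% and 2.66%, and those of all genes between 0.762% and 2.48%. P4 and P3 were the closest pair, with 252 of 263 members (95.8%) within 1.5-fold, against 93.4% of all genes.

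**Figure D1:**
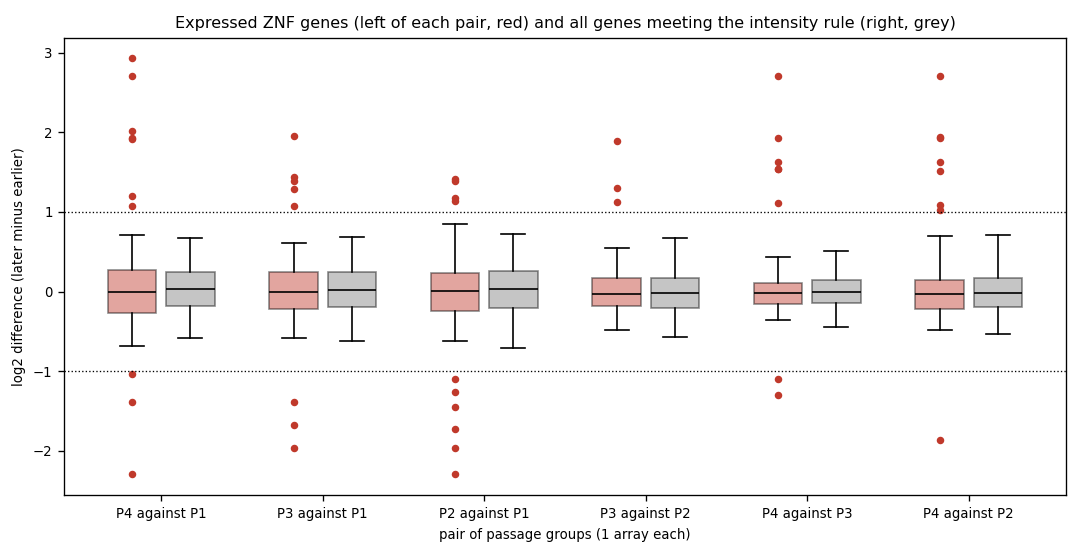
Log2 differences of the 263 expressed ZNF genes (red, left) and of all 9842 genes meeting the intensity rule (grey, right) in the 6 pairs of arrays. Boxes span the quartiles, whiskers the 5th to 95th percentile, red points are members past 2-fold (dotted lines), and the medians of both sets lie near 0 in every pair.

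ZNF667 encodes a KRAB zinc finger protein and shares its start region with the antisense transcript ZNF667-AS1. Its brightest probe read -0.031 (P1), 2.11 (P2), -0.52 (P3) and 251 units (P4), so that only P4 lay above the limit. The level in P4 was at least 6.54-fold higher than in P1, P2 or P3. A dimmer ZNF667 probe read 83.3 in P4 and between 1.66 and 10.2 on the other arrays, a log2 difference of at least 1.12 for P4 against each. The start-site window shown above held 42 CG in 300 bases, in the upper quartile of the members.

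The genes on either side of ZNF667 did not move as 1 block. ZNF667-AS1, next to it, read -6.14 (P1), -3.79 (P2), -7.80 (P3) and 731 units (P4). PEG3, an imprinted gene of the same chromosome end that is expressed from the paternal copy, read 14.4 (P1), 21.1 (P2), 6.21 (P3) and 269 units (P4). Both thus shared with ZNF667 a level above the limit in P4 only. ZNF583, the closest measured gene on the other side, read 80.6 (P1), 96.7 (P2), 93.4 (P3) and 82.7 units (P4), with no difference past 2-fold. ZNF582, ZNF471, ZFP28, ZNF71, ZNF835 and ZIM2 were under the limit on all 4 arrays. Of the 16 genes listed for this neighbourhood, 14 had a probe and 7 met the intensity rule. In P4 against P1, 3 were past 2-fold, all higher (all genes 1.94%). These were ZNF667, ZNF667-AS1 and PEG3. Each reached 100 units in P4 alone, so meeting the rule had already fixed that outcome. That list was drawn up with the pattern of ZNF667 known.

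ZNF560, a KRAB zinc finger gene of the other chromosome 19 arm with 1 probe, read 17.3 (P1), 102 (P2), 101 (P3) and 292 units (P4). It was under the limit in P1, alike in P2 and P3, and highest in P4. The level was at least 7.60-fold higher in P4 than in P1 and 2.90-fold higher in P4 than in P3. In P2 it was at least 2.66-fold higher than in P1.

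Neighbours of ZNF560 followed several patterns. ZNF177, a KRAB zinc finger gene lying close by, read 251 (P1), 477 (P2), 280.3 (P3) and 131 units (P4). It was highest in P2 and lowest in P4, 3.63-fold lower in P4 than in P2 and 2.13-fold lower in P4 than in P3. ZNF266, which lies between ZNF177 and ZNF560, read 154 (P1), 307 (P2), 243 (P3) and 262 units (P4), with P1 the low array. Its next probe read 135 in P4 and 95.3 in P1. ZNF426, on the far side, stayed between 822 and 1055 units, and ZNF121 and ZNF561 between 96.1 and 141 units. Of 12 genes listed for this neighbourhood, 10 were members. In P4 against P1, ZNF560 alone of these was past 2-fold (all genes 1.94% higher and 1.16% lower).

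**Figure D2:**
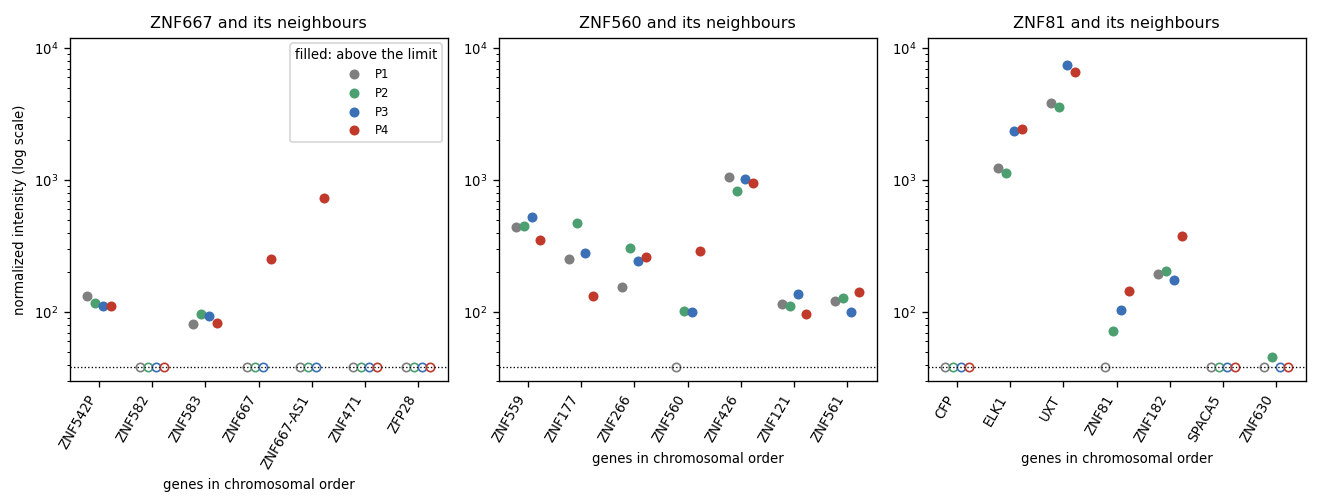
Normalized intensity (log scale) of ZNF667, ZNF560 and ZNF81 with the nearest measured genes on either side, in RefSeq gene order, for P1 to P4. Open circles are values at or under the dotted detection limit. ZNF667 and ZNF667-AS1 are above it in P4 only, and ELK1 and UXT lie higher in P3 and P4 than in P1 and P2.

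Besides these genes, 6 members were under the limit on at least 1 array. ZNF439, a KRAB zinc finger gene of chromosome 19 with a lone probe, read 18.5 (P1), 0.92 (P2), -0.49 (P3) and 146 units (P4). Its pattern, above the limit in P4 alone, was that of ZNF667, and the level was at least 3.80-fold higher in P4 than in P3. On one side of it, ZNF440, ZNF441 and ZNF491 were under the limit on every array. On the other side, ZNF69 (14494 to 24576 units), ZNF700 (537 to 716) and ZNF763 (728 to 938) were above it on all 4 and did not share the pattern.

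ZNF502, on chromosome 3, read 15.3 (P1), 40.2 (P2), 149 (P3) and 155 units (P4). The 2 later groups were alike and above both earlier ones, 3.69-fold higher in P3 than in P2 and at least 4.03-fold higher in P4 than in P1. The P2 value lay just over the limit. Among its neighbours, ZNF35 read 532 (P1), 590.0 (P2), 498 (P3) and 475 units (P4), and ZNF501 and ZNF660 were under the limit throughout.

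ZNF311, beside the olfactory receptor genes of chromosome 6, read 189 (P1), 16.1 (P2), 94.3 (P3) and 22.8 units (P4). Levels alternated between passage groups: P1 was highest, P3 intermediate, and P2 and P4 were under the limit. In P4 it was at least 4.91-fold lower than in P1 and at least 2.45-fold lower than in P3. TRIM27, the nearest gene on one side, read 259.7 (P1), 254 (P2), 289 (P3) and 248 units (P4) and did not share this pattern.

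ZNF454, on chromosome 5, read 149 (P1), 31.3 (P2), 3.84 (P3) and 119 units (P4). The first and last groups were above the limit and the middle pair under it, so P3 was at least 3.89-fold lower than P1, and P4 at least 3.09-fold higher than P3. ZNF558, which in human neural progenitors represses the mitophagy gene SPATA18, had a like order at higher intensity. It read 222 (P1), 103 (P2), 69.5 (P3) and 203 units (P4), 3.19-fold lower in P3 than in P1 and 2.92-fold higher in P4 than in P3. In P4 against P1 neither gene was past 2-fold.

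ZNF81, on the short arm of the X chromosome, read 34.8 (P1), 71.3 (P2), 104 (P3) and 145 units (P4), higher at each step. Its level was at least 3.78-fold higher in P4 than in P1 and 2.04-fold higher in P4 than in P2. A dimmer probe of ZNF81 read 15.2, 22.3, 50.9 and 69.8 in the same order, with P1 and P2 both under the limit, so its first step was not measured. ZNF182, the next gene, read 193 (P1), 205 (P2), 176 (P3) and 380.0 units (P4), 2.16-fold higher in P4 than in P3. A second ZNF182 probe was under the limit on all arrays. On the other side, UXT, a prefoldin-like cofactor, read 3817 (P1), 3602 (P2), 7378 (P3) and 6569 units (P4) and the transcription factor ELK1 1235 (P1), 1128 (P2), 2369 (P3) and 2434 units (P4). Both had their higher pair of values in P3 and P4, as ZNF81 did. Over the 377 genes of the X chromosome meeting the intensity rule, the median in P4 against P1 was 0.14 on the log2 scale, and over the 5 X-linked members 0.16.

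ZNF326, a subunit of the DBIRD complex that couples splicing to transcript elongation, passed the intensity rule just barely. It read 34.3 (P1), 100.3 (P2), 81.0 (P3) and 51.4 units (P4), highest in P2 and under the limit in P1. Its other 2 probes were under the limit on every array, so this pattern rests on values near the limit.

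**Figure D3:**
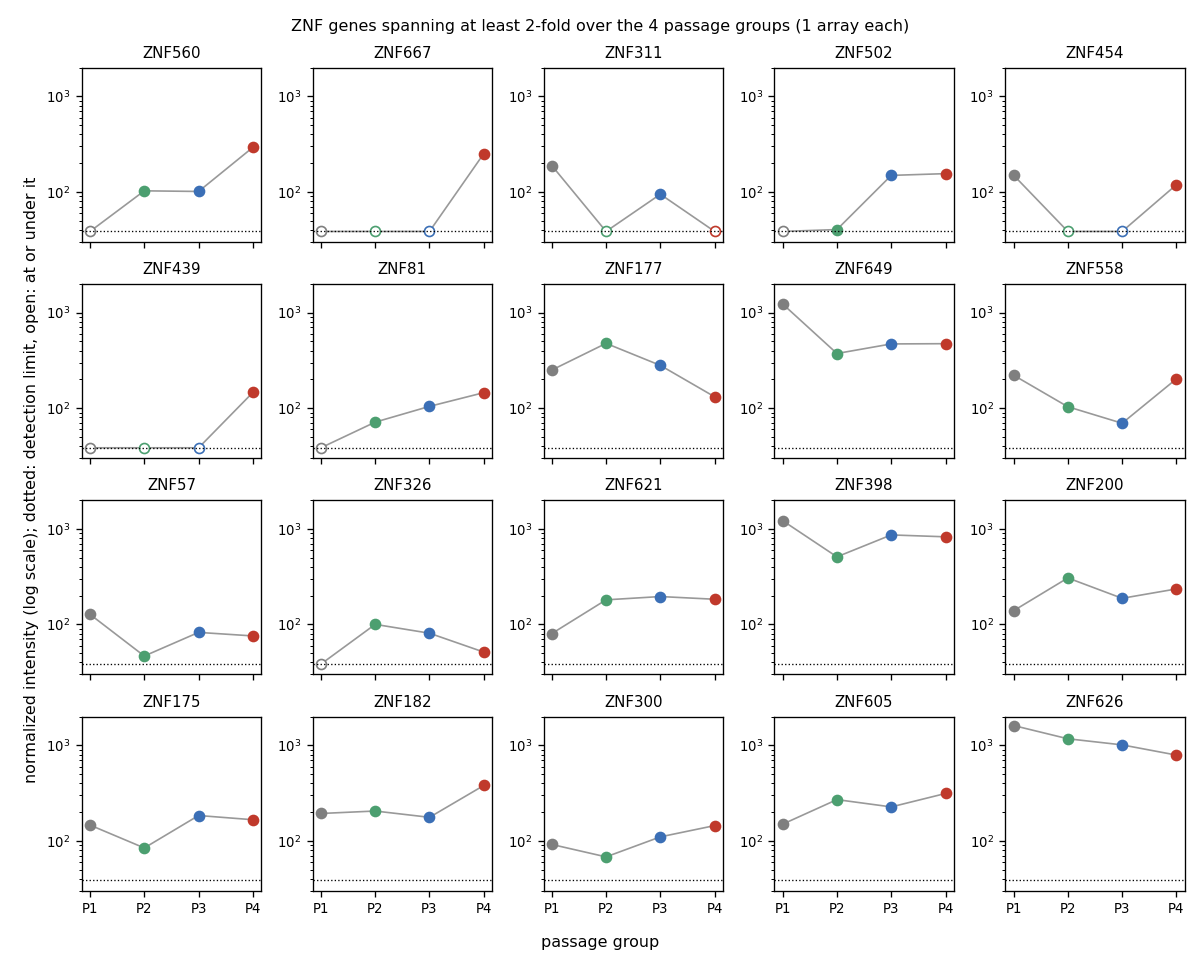
Normalized intensity (log scale) in P1 to P4 of the 20 expressed ZNF genes that spanned at least 2-fold, 1 panel a gene, ordered from the widest range (ZNF560) to the narrowest (ZNF626). Open circles lie at or under the dotted detection limit, as P1 to P3 do for ZNF667 and ZNF439.

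The remaining genes with a range of at least 2-fold were above the limit on all arrays. ZNF649, a KRAB repressor, read 1234 (P1), 374 (P2), 471 (P3) and 473 units (P4), so that the later groups were alike and P1 stood above them, 3.30-fold lower in P2 than in P1 and 2.61-fold lower in P4 than in P1. It has a lone probe. Of its neighbours, ZNF577 read 4054 (P1), 3274 (P2), 3303 (P3) and 2929 units (P4) with its brightest probe. ZNF613 read 969 (P1), 674 (P2), 1045 (P3) and 1099 units (P4). Neither was past 2-fold on these probes. A second ZNF577 probe read 202 (P1), 104 (P2), 359 (P3) and 160 units (P4). That probe gave log2 differences of 1.79 in P3 against P2 and -1.17 in P4 against P3.

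ZNF398, a factor reported to work with SMAD3 in human pluripotent cells, read 1223 (P1), 511 (P2), 867 (P3) and 829 units (P4). P2 was the low array, 2.39-fold lower in P2 than in P1, and P4 was 1.48-fold lower than P1. Its dimmer probe stayed between 39.8 and 59.9 units and gave a P2 minus P1 log2 difference of -0.11. ZNF57 read 128 (P1), 46.7 (P2), 82.6 (P3) and 75.9 units (P4) and was likewise lowest in P2, 2.73-fold lower in P2 than in P1. ZNF175, first described in human macrophages, read 146 (P1), 84.2 (P2), 184 (P3) and 166 units (P4), and ZNF300 read 91.6 (P1), 67.9 (P2), 110.0 (P3) and 144 units (P4). Both had their minimum in P2, and ZNF300 was 2.13-fold higher in P4 than in P2.

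Of the members above the limit on all arrays with a 2-fold range, 3 had the reverse order, with P1 lowest. ZNF621 read 80.3 (P1), 181 (P2), 196 (P3) and 184 units (P4), 2.29-fold higher in P4 than in P1 and little different among the later groups. ZNF605 read 149 (P1), 270.2 (P2), 227 (P3) and 313 units (P4), 2.10-fold higher in P4 than in P1. ZNF200 read 139 (P1), 307 (P2), 188 (P3) and 236 units (P4), with its peak in P2, 2.21-fold higher in P2 than in P1. A second ZNF200 probe gave 76.7, 192, 128 and 154 units in P1 to P4, the same order. Over the 20 members, P1 was the lowest array for 7 and the highest for 7, and P4 the highest for 8 and the lowest for 2. Over the 993 genes of any name with such a range, P4 was highest for 25.6% and P1 lowest for 33.3%.

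Few members moved one way through all 4 groups by 2-fold or more in total. ZNF502 and ZNF81 stepped up (all genes 0.508%), and ZNF626 stepped down (all genes 0.376%). ZNF626, a KRAB gene of a recent chromosome 19 cluster, read 1614 (P1), 1172 (P2), 1012 (P3) and 791 units (P4) with its brightest probe, 2.04-fold lower in P4 than in P1. Its other 4 probes differed by 0.43, -0.0036, -0.20 and 0.093 on the log2 scale in P4 against P1, so the step rested on 1 of 5 probes.

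Several members lay just short of 2-fold. ZNF84 read 252 (P1), 502 (P2), 342 (P3) and 390.4 units (P4), and its second probe 119, 234, 181 and 196 units, both highest in P2. ZNF875 read 116 (P1), 226 (P2), 218 (P3) and 223 units (P4), 1.92-fold higher in P4 than in P1 with the later groups alike. ZNF112 was 1.96-fold higher in P2 than in P1, and ZNF740 1.94-fold higher in P2 than in P1. ZNF24, a SCAN-domain protein, read 55.5 (P1), 93.0 (P2), 99.1 (P3) and 106 units (P4) and ZNF285 192 (P1), 256 (P2), 244 (P3) and 361 units (P4). On the lower side of P4 against P1, ZNF184 was 1.80-fold lower, ZNF785 1.72-fold lower, ZNF773 1.72-fold lower, ZNF860 1.70-fold lower and ZNF790 1.67-fold lower. ZNF671 was 1.88-fold higher in P3 than in P1. In the pairs without P1, ZNF691 was 1.81-fold higher in P3 than in P2 and ZNF562 1.93-fold higher in P3 than in P2. On the lower side, ZNF48 was 1.71-fold lower and ZNF513 1.57-fold lower in P3 than in P2. In P4 against P3, ZNF34 was 1.73-fold lower, ZNF397 1.49-fold lower and ZNF559 1.49-fold lower, and in P4 against P2, ZNF418 was 1.68-fold lower, ZNF268 1.67-fold lower and ZNF692 1.64-fold lower. None of these smaller differences can be set against a replicate.

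Position was the next feature the intensity rule had not used. Chromosome 19 held 124 of the 263 members, or 47.1%, against 7.26% of all genes meeting the rule. Runs of at least 5 ZNF genes, with no more than 5 other protein-coding genes between neighbours, numbered 20 with a member and held 153 members (58.2%). In P4 against P1 the median log2 difference was -0.011 for members in runs and -0.029 for the other 110. A range of at least 2-fold was found for 11 in runs (7.19%) and for 9 of the others (8.18%). For chromosome 19 the median was -0.021 over its members and 0.097 over its 715 genes of any name meeting the rule.

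Single runs departed from 0. Those described here include the lowest and the highest median in P4 against P1 among runs with at least 3 members. The run from ZNF101 to ZNF254 on chromosome 19 had 16 members, whose median log2 difference was -0.40 in P4 against P1, -0.28 in P3 against P1 and -0.25 in P2 against P1. These 3 comparisons share P1. Of the 16, 13 were lower in P4 than in P1, and only ZNF626 was so by 2-fold. Of all 9842 genes meeting the rule, 4486 were lower in P4 than in P1 and 5341 higher. Of the 263 members, 137 were lower and 126 higher. ZNF91, which represses SVA retroelements in human cells, read 2372 (P1), 1668 (P2), 1856 (P3) and 1692 units (P4), and ZNF681 956 (P1), 509.9 (P2), 787 (P3) and 676 units (P4). ZNF675 read 122 (P1), 67.2 (P2), 85.7 (P3) and 73.3 units (P4) and ZNF493 552 (P1), 471 (P2), 426 (P3) and 369.9 units (P4). P1 was the highest array for all 4, but ZNF681, ZNF675 and ZNF493 were picked after their values were seen. The 3 members of the run that were higher in P4 than in P1 were ZNF430, ZNF14 and ZNF101. Their log2 differences were 0.060, 0.036 and 0.034. ZNF93, which represses a family of LINE elements, read 574 (P1), 522 (P2), 605 (P3) and 564 units (P4) and was within 1.5-fold throughout.

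Other probes of the same genes did not share this shift. In that run, 7 genes had another probe reaching the limit, 11 probes in all, of which 5 were lower and 5 higher in P4 than in P1, with a median of 0. The genes are close paralogs, and which transcripts each probe reads was not tested. Without 5 members at 10000 units or more, the median was -0.44 over 11 genes, 10 of them lower in P4. The run from ZNF722 to ZNF92 on chromosome 7 had 4 members, ZNF273, ZNF679, ZNF735 and ZNF736. All 4 were lower in P4 than in P1, with a median of -0.28, none by 2-fold.

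The run from ZNF283 to ZNF180 on chromosome 19 lay on the other side. Its 9 members had a median of 0.46 in P4 against P1, 0.25 in P3 against P1 and 0.41 in P2 against P1, and 7 of the 9 were higher in P4 than in P1. Among them ZNF285 was 1.88-fold higher, ZNF112 1.55-fold higher and ZNF283 1.53-fold higher, whereas ZNF223 was 1.36-fold lower. In this run 2 genes had another probe reaching the limit, 3 probes in all, of which 1 was lower and 2 higher in P4 than in P1. The lower one was that of ZNF234, with a log2 difference of -0.29 where its brightest probe gave 0.46. The chromosome 12 run from ZNF605 to ZNF268 had a median of 0.32 over 6 members, and the run from ZNF205 to ZNF597 on chromosome 16 a median of 0.35 over 5. The 2 largest runs, ZNF577 to ZNF331 with 23 members and ZNF264 to ZNF446 with 24, had medians of -0.12 and 0.17. ZNF649 was 1 of 14 members lower in P4 in the ZNF577 to ZNF331 run. ZNF274, of the ZNF264 to ZNF446 run, binds ZNF genes themselves and recruits SETDB1, and it read 497 (P1), 743 (P2), 637 (P3) and 619.8 units (P4).

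**Figure D4:**
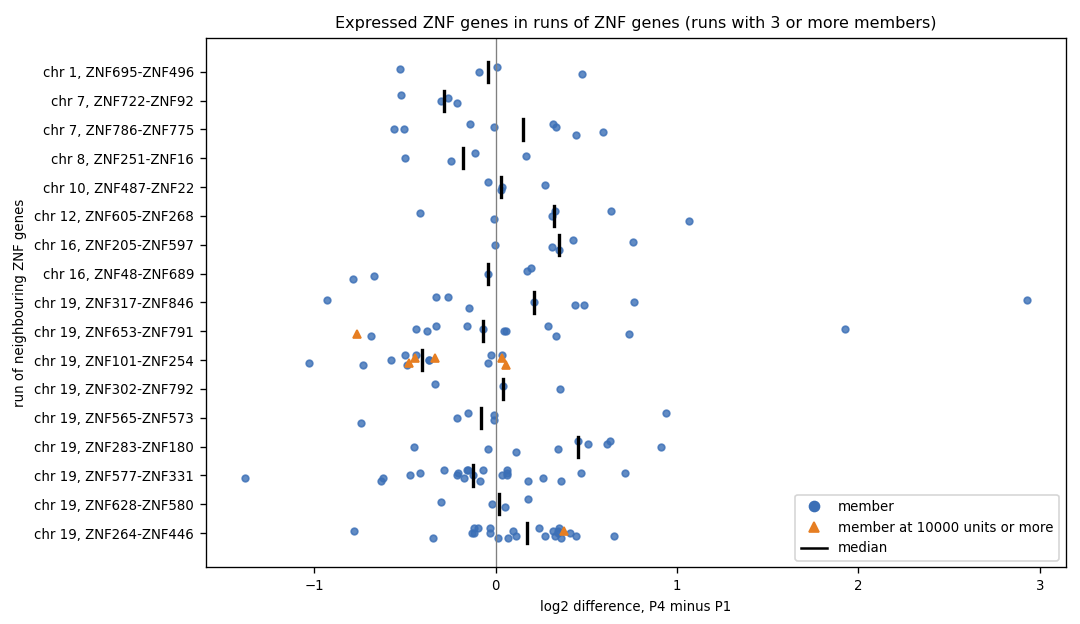
Log2 difference in P4 against P1 of each member in the runs of neighbouring ZNF genes that hold at least 3 members, with run medians as black bars and members at 10000 units or more as orange triangles. The ZNF101 to ZNF254 run has its median at -0.40 and the ZNF283 to ZNF180 run at 0.46.

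A small set of members stood apart in intensity. In 10 the brightest probe averaged 10000 units or more, a share of 3.80% against 3.21% of all genes meeting the rule. These were ZNF430, ZNF14, ZNF549, ZNF674, ZNF486, ZNF394, ZNF682, ZNF69, ZNF738 and ZNF652. Of the 10, 6 were lower at every step from P1 to P4. The share over all 316 genes at such intensities was 14.6%, and over all members 9.51%. ZNF69 had the widest range of these, at 24576 (P1), 17820.5 (P2), 15301 (P3) and 14494 units (P4). ZNF738 read 16003 (P1), 12859 (P2), 11803 (P3) and 11479 units (P4) and ZNF682 21849 (P1), 18002 (P2), 17403 (P3) and 16063 units (P4). ZNF652, a repressor that works with CBFA2T3, read 13753 (P1), 12998 (P2), 11479 (P3) and 9673 units (P4). None of the 10 reached 2-fold in any pair.

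The next probes of these genes did not all follow the bright ones. Of 7 genes with several probes, 6 had another above the limit, at 169 to 790 units on average. For ZNF69 that probe read 638, 1045, 614 and 864 units in P1 to P4, a log2 difference of 0.44 in P4 against P1, where the bright probe gave -0.76. For ZNF682 the next probe gave 0.51 and the bright one -0.44. For ZNF14 the next probe gave -0.11 and the bright one 0.036, and for ZNF430 the next probe gave -0.15 and the bright one 0.060. In 2 genes both probes had the same direction. For ZNF394 the next probe gave -0.27 and the bright one -0.42, and for ZNF549 the next probe gave 0.079 and the bright one 0.38. In ZNF483, just under the mark with a mean of 7947 units, the probes parted as in ZNF69 and ZNF682. Its brightest probe read 10355 (P1), 8518 (P2), 6748 (P3) and 6166 units (P4). Its next ones gave log2 differences of 0.10 and 0.62 in P4 against P1. Whether the bright probes read the named transcripts was not tested.

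**Figure D5:**
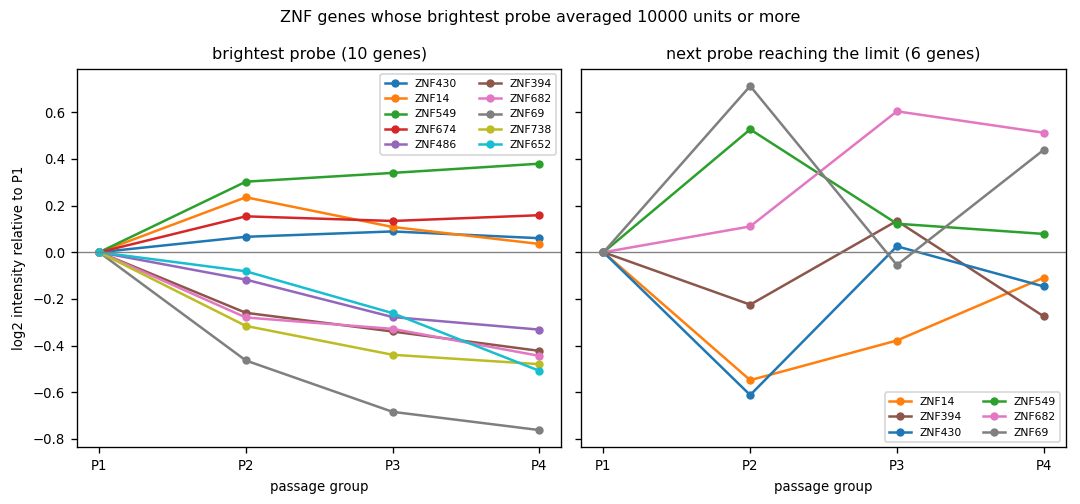
Log2 intensity relative to P1 for the 10 ZNF genes whose brightest probe averaged 10000 units or more (left) and for the next probe of the 6 genes that have another above the limit (right). On the left 6 lines go down at every step. On the right none does.

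ZNF genes with known roles outside KRAB repression were read as a list. Of 29 such genes listed with earlier results of these arrays known, 22 were members, and in P4 against P1 none was 2-fold higher (all genes 1.94%) or lower (all genes 1.16%), and the median log2 difference was -0.066. ZNF281, a GC-rich sequence binding factor active in pluripotent cells, read 3161 (P1), 2331 (P2), 2328 (P3) and 2383 units (P4). ZNF207, a kinetochore protein that binds BUB3, read 3660.4 (P1), 4571 (P2), 3463 (P3) and 3822 units (P4). ZNF143, an activator of small RNA and messenger RNA promoters, read 819 (P1), 776 (P2), 928 (P3) and 765 units (P4), and ZNF462 2244 (P1), 2135 (P2), 2160.1 (P3) and 1849.8 units (P4). All 4 stayed within 1.5-fold over the 4 arrays. ZNF598, the ubiquitin ligase of collided ribosomes, read 1266 (P1), 1765 (P2), 1362 (P3) and 1583 units (P4), and ZNF622 and ZNF593, factors of large ribosomal subunit maturation, were 1.26-fold higher and 1.20-fold higher in P4 than in P1. ZNF330, a nucleolar protein, read 992 (P1), 1091 (P2), 1243 (P3) and 1585 units (P4), 1.60-fold higher in P4 than in P1. A second ZNF330 probe did not share this rise. It read 639 (P1), 413 (P2), 692 (P3) and 568 units (P4), a log2 difference of -0.17 in P4 against P1. ZNF346, which binds double-stranded RNA, read 183 (P1), 214 (P2), 119.6 (P3) and 111 units (P4) with P4 1.64-fold lower than P1. ZNF217, a corepressor subunit, and ZNF423, a cofactor of SMAD and EBF proteins, were 1.10-fold lower and 1.02-fold lower in P4 than in P1. ZNF398 and ZNF326 alone of the 22 spanned at least 2-fold over the 4 arrays, against 10.1% of all genes meeting the rule.

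Among 19 genes with known retroelement or imprint targets, 18 had a probe and 7 were members. ZNF649 was the 1 past 2-fold, lower than in P1 in P4 (all genes 1.16%), P3 (1.59%) and P2 (2.26%). ZNF10, the source of the KRAB domain widely used in engineered repressors, read 189.8 (P1), 244 (P2), 212 (P3) and 238 units (P4) and ZNF202 242 (P1), 275 (P2), 261 (P3) and 210.1 units (P4). ZNF445, which keeps imprints, was under the limit on all 4 arrays.

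Of 25 genes listed as partners of KRAB proteins, 22 met the intensity rule. None spanned 2-fold over the 4 arrays, against 10.1% of all genes meeting the rule, and in single pairs the all-gene shares were 0.762% to 2.48% each way, so few such calls would fall among 22 genes. Their median log2 difference was 0.0047 in P4 against P1, 0.059 in P3 against P1 and 0.13 in P2 against P1. TRIM28 read 2093 (P1), 2155 (P2), 2332 (P3) and 2449 units (P4), and SETDB1 615 (P1), 627 (P2), 638 (P3) and 543 units (P4). The heterochromatin proteins CBX1, CBX3 and CBX5 were 1.18-fold higher, 1.10-fold lower and 1.06-fold lower in P4 than in P1. The maintenance methyltransferase DNMT1 read 5691 (P1), 7947 (P2), 6829 (P3) and 7141 units (P4), and its partner UHRF1 1901 (P1), 3726 (P2), 2751 (P3) and 2250.5 units (P4), 1.96-fold higher in P2 than in P1. TASOR, MPHOSPH8 and PPHLN1, the subunits of the HUSH silencing complex, were 1.20-fold lower, 1.06-fold lower and 1.05-fold lower in P4 than in P1. HDAC1, a histone deacetylase, read 3269.9 (P1), 5067 (P2), 5203 (P3) and 5391 units (P4), with P1 the low array.

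Of 33 related zinc finger repressors of other names, 31 had a probe and 19 met the intensity rule, with a median of 0.19 in P4 against P1. PEG3 and ZFP3 were the 2 past 2-fold, both higher in P4, where 1.94% of all genes were higher and 1.16% lower. Both met the intensity rule through their P4 value alone. Given their P1 values, meeting the rule had already fixed that outcome, so these 2 are not evidence that the list varies. ZFP3 read 46.0 (P1), 18.4 (P2), 39.6 (P3) and 147 units (P4), 3.21-fold higher in P4 than in P1. ZFP42, a marker of undifferentiated cells also known as REX1, read 4574 (P1), 4352 (P2), 4379 (P3) and 4702 units (P4), and ZSCAN10, a partner of the pluripotency factors, 5429.6 (P1), 5950.2 (P2), 4494 (P3) and 5758 units (P4). ZFP57, the best known keeper of imprints, was under the limit on every array.

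At the other end, several members hardly varied. ZNF189 read 471 (P1), 472 (P2), 462 (P3) and 469 units (P4) and ZNF205 128 (P1), 125 (P2), 126 (P3) and 127 units (P4), each spanning 1.02-fold over the 4 arrays. ZNF526, ZNF275, ZNF618, ZNF670 and ZNF777 spanned 1.06-fold to 1.08-fold. At the intensity threshold, the members just inside were ZNF326 (highest deposited value 100.3), ZNF836 (100.3) and ZNF343 (103), and the genes just outside were ZNF583 (96.7), ZNF524 (96.4) and ZNF43 (96.4).

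Lone probes and markers of other cells limit these readings. Of the 263 members, 170 had 1 probe. ZNF544 shows how probes of a gene can part: its brightest read 1836 (P1), 2523 (P2), 1953 (P3) and 1925 units (P4), and its second 92.7, 45.4, 32.1 and 21.0 units in P1 to P4. In P4 against P1, 10 members were past 2-fold, 7 of them on a lone probe, and of 3 with another probe above the limit 2 went the same way by at least 1.5-fold. Markers of other cell types were read beside them. None of the 8 trophoblast markers reached the limit on any array, and PAX6 and SOX1, which define neural progenitors, were under it throughout. Of 8 neural markers with a probe, however, 6 reached the limit and 5 met the intensity rule. The median log2 difference of this list was 0.57 in P4 against P1 (all genes 0.030) and 0.51 in P3 against P1 (all genes 0.023). The summed intensity of 8 neural markers was 5978 (P1), 7473 (P2) and 8061 (P4), with the highest value in P3, and STMN2, a neuronal protein, read 64.4 (P1), 137 (P2), 583 (P3) and 191 units (P4). Of 10 mesendoderm and endoderm markers, AFP and FOXA2 reached the limit, and 1 marker met the intensity rule. The sum over this list was 78.1 (P1), 241 (P2), 230 (P3) and 103 (P4), so it was higher in the middle groups. The 10 fibroblast markers summed to 9723 (P1), 10782 (P2), 10214 (P3) and 13075 (P4). COL3A1, LUM, DCN and FN1 were under the limit, and 6 reached it, 3 of them with a 2-fold range. The median log2 difference of the fibroblast list was 0.57 in P4 against P1 (all genes 0.030). It was 0.23 in P3 against P1 (all genes 0.023) and 0.55 in P4 against P2 (all genes -0.017). COL1A1 read 466 (P1), 708 (P2), 808 (P3) and 944 units (P4). ACTA2, a smooth muscle actin, read 454 (P1), 125 (P2), 75.5 (P3) and 256 units (P4), and TAGLN 3145 (P1), 4017 (P2), 1935 (P3) and 3114 units (P4), so these markers did not share an order. The part of these markers in the ZNF differences was not tested.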

How the data were processed

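Per the labels' protocols, total RNA was extracted with Trizol, column-purified with DNase I treatment, and amplified into biotin-labelled cRNA for Illumina arrays. The deposited values are linear probe intensity values, with 25.2% to 25.4% of the probes of an array below 0, so background had been subtracted before deposit. The software and between-array method are not given in the sources used here. Arrays were quantile normalized in Python 3.11.15 (pandas 2.3.3), floored at the 60th percentile (38.4 units) and log2 transformed. Of several probes of a gene, the one brightest on average stood for it. In the platform annotation, 30113 probes name 1 gene, 8 name several and 17202 are not listed. Symbols were updated by Entrez identifier to RefSeq (30074 matched). Y-linked and X-inactivation-centre genes were not analysed here. Named genes were the markers ZNF667 and ZNF560, the 12 highest and 12 lowest members in P4 against P1, the 6 each way in the other pairs, the 10 brightest, the 8 widest and 8 narrowest ranges, the stepping members, those at the threshold, listed genes, the 4 with the largest spread between probes and the widest of each run. Neighbours, ZNF441, ZNF491 and a few run members were added after their values were seen. Members and lists were chosen with earlier results of these data known. The calculation was tested on simulated data. A domain count from protein sequence was planned and not run. Alternatives covered normalization, floor, probe rule, member threshold and fold threshold.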

Additional observations from a re-analysis of the deposited data

How the results depend on the processing

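The counts of members past 2-fold in the 6 pairs, the stepping members and the member medians were recomputed. The shares over all genes were not recomputed under the alternatives. The counts below thus describe the members alone and cannot be set against other genes. Under the deposited intensities, a common median scaling or a floor at the 50th percentile, and without members at 10000 units or more (an alternative added after seeing the data), all 20 of these results stayed within the limits set, 1.5 times for a count and 0.1 (log2) for a median. The medians did so under every alternative run. With the floor at the 75th percentile, the members higher by 2-fold were 0 in P4 against P1, 0 in P3 against P1, 0 in P2 against P1, 0 in P3 against P2, 1 in P4 against P3 and 0 in P4 against P2. The lower ones were 1 in P3 against P1, 2 in P2 against P1 and 0 in P4 against P3, and 0 stepped up. A higher floor narrows each fold measured from a dim array by its construction. With an offset of 50 and no floor, 2 were higher in P3 against P1, 1 in P2 against P1, 0 were lower in P4 against P3, and 0 stepped down. With the mean over probes, 0 stepped down, as the other ZNF626 probes did not follow its brightest. At a member threshold of 200 units (202 genes), 3 were higher in P4 against P1, 1 in P3 against P1, 2 in P2 against P1, 0 in P3 against P2 and 2 in P4 against P2, while 3 were lower in P2 against P1 and 1 in P4 against P3. At 50 units (316 genes), 1 was lower in P3 against P2. With 100 units needed on all 4 arrays (221 genes), 1 was higher in P4 against P1, 0 in P3 against P1, 1 in P2 against P1, 0 in P3 against P2, 1 in P4 against P3 and 0 in P4 against P2, and 1 was lower in P3 against P1, 2 in P2 against P1 and 1 in P4 against P3. At 1.5-fold, 23 were higher and 18 lower in P4 against P1, 17 and 14 in P3 against P1, 27 and 17 in P2 against P1, 14 and 8 in P3 against P2, and 18 and 7 in P4 against P2, and 4 were lower in P4 against P3. At 3-fold, 1 was lower in P4 against P1, 1 higher in P3 against P1, 0 higher and 3 lower in P2 against P1, 1 higher in P3 against P2, 3 higher and 0 lower in P4 against P3, and 4 higher in P4 against P2. Of 105 log2 differences of single named genes, 46 moved under the higher floor, 17 under the lower one, 7 with the mean over probes and 4 with the offset. Direction was checked only for differences of 2-fold or more, and none of these reversed. Smaller ones were not checked, and the probes of ZNF682 and ZNF544 went opposite ways in P4 against P1. No paired analysis was possible because each group has 1 array, so the shared replicate number pairs nothing and leaves no residual spread. The dim members are limited by signal over background: 8 were under the limit on at least 1 array.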
